A study of Mus musculus with 4 samples.

Results

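The cells described here are the pericytes and smooth muscle cells of the lung, 165 of 28168 cells that passed the quality limits in 4 mice. A cell was a member if it held a unique molecular identifier (UMI, a tag that counts 1 captured RNA molecule) for at least 3 of 9 genes: the pericyte genes Cox4i2, Higd1b, Notch3 and Pdgfrb and the contractile genes Myh11, Tagln, Cnn1, Acta2 and Actg2. It also had to lack every UMI of the fibroblast genes Tcf21, Pi16 and Dpt, the mesothelial genes Msln and Upk3b, the leukocyte gene Ptprc, the endothelial gene Pecam1, the epithelial gene Epcam and the heart muscle genes Myh6 and Tnnt2. The quality limits were at least 250 genes, at most 15% mitochondrial UMIs and under 50% haemoglobin UMIs. Because the 9 genes chose the cells, their levels are a description. They were left out of every count, median and test of a gene list below, except the count of promoter elements.

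All 4 mice were females of the FVB/NJ strain that carried the MMTV-PyMT transgene, in which a mammary tumour virus promoter drives a viral oncoprotein in the mammary gland. They were 13 weeks old and had carried a treatment pellet since 8 weeks of age, for 5 weeks. The pellet was a placebo in 2 mice and held 5 mg of tamoxifen, a modulator of oestrogen receptors, with release over 60 days in the other 2. Lungs were perfused, digested with enzymes and read without sorting by droplet RNA sequencing from the 5′ ends of transcripts, with 1 library per mouse.

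Pericytes and smooth muscle cells are the mural cells, which sit on the outside of vessels, and smooth muscle also rings the airways. Pericytes share a basement membrane with the capillary endothelium and depend on platelet-derived growth factor signalling through Pdgfrb, while Notch3 keeps vascular mural cells differentiated. Smooth muscle cells contract by sliding smooth muscle myosin over alpha and gamma smooth muscle actin, a programme that serum response factor (SRF) and its co-activator myocardin switch on through the CArG box in the promoters of contractile genes.

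The placebo libraries held 65 and 21 members and the tamoxifen libraries 45 and 34. Their share of the kept cells was 0.863% in placebo mouse 1 (95% Clopper-Pearson interval 0.667 to 1.10) and 0.326% in placebo mouse 2 (0.202 to 0.497). It was 0.654% in tamoxifen mouse 1 (0.477 to 0.874) and 0.465% in tamoxifen mouse 2 (0.322 to 0.650). Both tamoxifen mice lay between the placebo mice. The mean share was 0.594% ± 0.380 (SD, n = 2) with placebo and 0.560% ± 0.133 (SD, n = 2) with tamoxifen, a difference of -0.0349 percentage points (two-sided exact permutation p = 1; the smallest p that 2 mice against 2 allow is 0.333). With each cell thinned to 1000 UMIs before the rule, which thins the excluding genes too, the shares were 1.81% and 0.584% with placebo (of 6862 and 6167 cells deep enough to thin) and 1.24% and 0.691% with tamoxifen (of 6476 and 6942).

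Members held more RNA than the average cell of their library: their median UMI count ran from 6027 to 6647 by mouse, against 2651 to 3998.5 over all kept cells. Summed over members, a mouse gave 140468 to 406524 UMIs, and placebo mouse 2, with the fewest cells, gave the least. Between 77 and 128 barcodes were shared by each pair of libraries, and no barcode was shared between members. No member had a doublet score over 0.25. In 12 members over 1% of the UMIs came from markers of blood, immune or secretory epithelial cells, 3 and 2 of them with placebo and 7 in tamoxifen mouse 2.

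Most members held the contractile genes of the rule, but 5 of its 9 genes are contractile and 3 were enough to enter. These shares therefore describe the chosen cells and do not test what the cells are. Acta2, alpha smooth muscle actin, was found in 155 of 165 members (93.9%), Tagln, the actin-binding protein transgelin, in 159 (96.4%), and Myh11, smooth muscle myosin heavy chain, in 154 (93.3%). Cnn1, calponin, was found in 125 members (75.8%) and Actg2, gamma smooth muscle actin, in 131 (79.4%). Of the pericyte genes, Notch3 was found in 107 members (64.8%), Pdgfrb in 84 (50.9%), Cox4i2, a subunit isoform of cytochrome oxidase, in 66 and Higd1b in 15 (9.09%). In B cells, which should lack these genes, Acta2 was found in 1.72 to 5.16% of cells and Cox4i2 in at most 0.314%, at median depths of 2569 to 4225 UMIs. Members carried 3 markers in 6 cells, just inside the rule, and 4 in 10 cells, while 134 carried 5 to 7. Just outside it, 5 cells met the other limits with 2 markers.

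**Figure D1:**
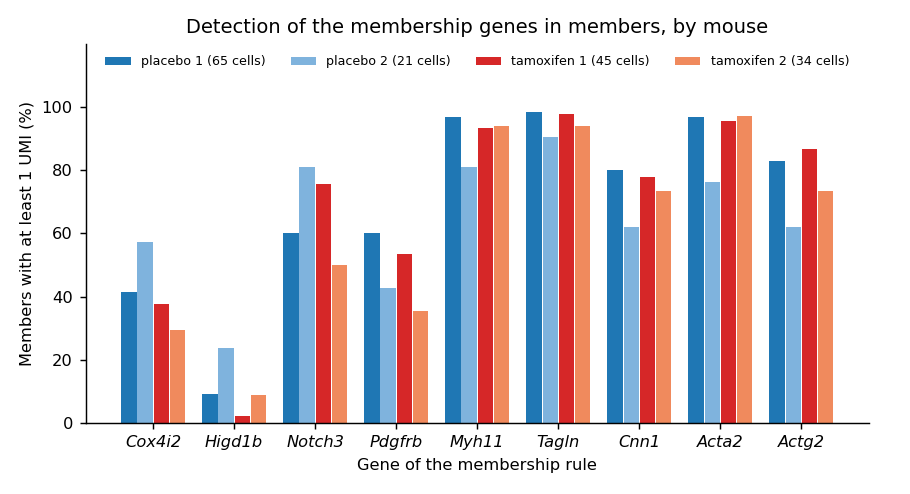
Share of members with at least 1 UMI of each gene of the membership rule (y axis, %), 1 bar per mouse. Contractile genes were found in most members of every mouse, and Higd1b in 15 of 165.

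A member was called pericyte-leaning with at least 2 of the 4 pericyte genes and at most 1 of the 5 contractile genes, smooth muscle-leaning in the converse case, and mixed otherwise. By this count 9 members (5.45%) were pericyte-leaning, 78 were smooth muscle-leaning and 78 were mixed. Placebo mouse 2 held 5 of the pericyte-leaning cells, tamoxifen mouse 1 held 2, and each of the others held 1. Their share of members was 12.7% ± 15.7 (SD, n = 2) with placebo and 3.69% ± 1.06 (SD, n = 2) with tamoxifen (two-sided exact permutation p = 1). The excluding genes bear on this number. Of 59 kept cells with at least 2 pericyte genes and at most 1 contractile gene, 10 met the excluding limits, and 37 held a UMI of Tcf21, Pi16 or Dpt, with Tcf21 in 32. Whether those 37 cells are pericytes was not tested.

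**Figure D2:**
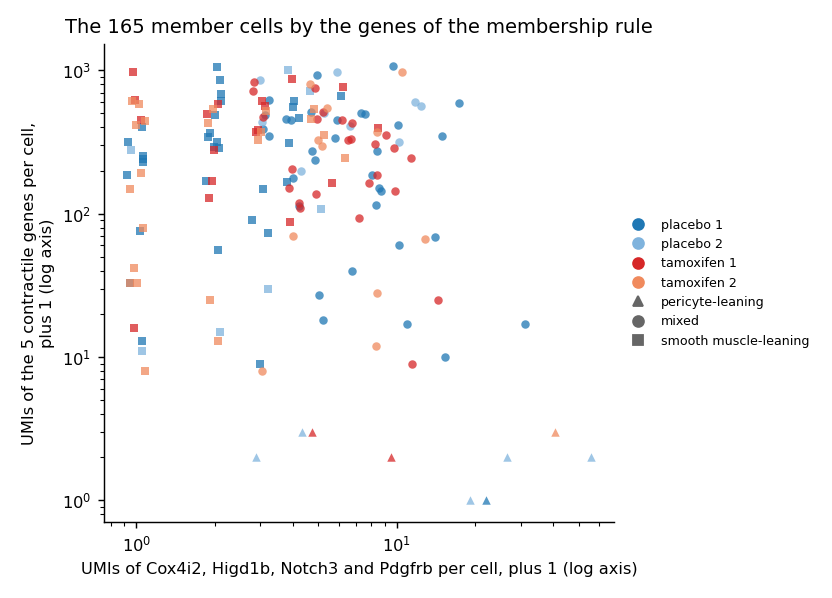
UMIs of the 4 pericyte genes (x axis) against UMIs of the 5 contractile genes (y axis) in each of the 165 members, both plus 1 on log axes, with a small sideways shift so that points do not hide each other. Colour gives the mouse and shape the subset. The 9 pericyte-leaning cells lie at the bottom, where their definition by at most 1 contractile gene places them. The mixed cells run into the smooth muscle-leaning ones.

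The 9 pericyte-leaning cells were not alike. In 1 cell of placebo mouse 2, with 6114 UMIs, 1121 UMIs came from alveolar type 2 genes and 89 from macrophage genes. In 1 cell of tamoxifen mouse 1, with 8330 UMIs, 123 UMIs came from adventitial fibroblast genes, 90 of them from Dcn, with 101 more from Cxcl12 and 2 from Pdgfra. That cell had no UMI of Cox4i2 or Higd1b, and the other 8 had both. The 9 cells were shallower than the rest, with a median of 2753 UMIs against 6484.5 in mixed and 6362 in smooth muscle-leaning cells. Of 20 pericyte genes outside the rule, a cell carried from 0 to 14.

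Some genes outside the rule stood higher in the 9 cells. Pde5a, the phosphodiesterase that degrades cyclic GMP, belongs to the list of nitric oxide and cyclic GMP genes, not to the pericyte list. It was found in 8 of the 9, at 1842 CPM (UMIs scaled to the same total for each sum of cells). Mixed cells held 206 CPM and smooth muscle-leaning cells 159 CPM. With members that held over 1% of RNA of other cell types left out, 7 pericyte-leaning cells remained, among them the cell with fibroblast genes, and the levels were 1973 CPM against 208 and 166 CPM. Ndufa4l2 stood at 1080 CPM in the 9 cells against 68.1 and 16.5 CPM, and Pdzd2 at 2731 CPM against 104 and 78.3 CPM. Trpc6, a calcium-permeable channel, was found in 4 of the 9, in 1 of the 78 mixed cells and in none of the 78 smooth muscle-leaning cells. Adcy8, an adenylyl cyclase, was found in 4 of the 9 and in no mixed or smooth muscle-leaning cell, where 0 of 78 allows a share of up to 3.85%. Of the 33 UMIs of Vtn, vitronectin, 25 came from the cell with fibroblast genes.

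Other pericyte genes were found in few of the 9 cells, which were shallower than the rest. Heyl, a Notch target, was found in 1 of the 9, against 51 of 78 mixed and 36 of 78 smooth muscle-leaning cells. Kcnj8 and Abcc9, the subunits of a potassium channel gated by ATP, were found in 1 and 2 of the 9, against 14 and 27 mixed cells and 14 and 24 smooth muscle-leaning cells. Rgs5, a regulator of G protein signalling, was found in 2 of the 9, against 17 and 7. By level, Heyl was lower in the 9 cells, at 31.8 CPM against 214 in mixed and 130 in smooth muscle-leaning cells. Kcnj8 (63.5 CPM against 45.4 and 43.2), Abcc9 (159 against 62.4 and 70.0) and Rgs5 (63.5 against 52.9 and 22.7) were not lower. Their levels in the 9 cells rest on 2, 5 and 2 UMIs. Lmod1 and Synpo2, outside the rule, were found in 68 and 56 of the 78 mixed cells. In the 78 smooth muscle-leaning cells they were found in 66 and 56. Lmod1 and Synpo2 had no UMI in the 9 cells. Neither had Acta2, Actg2 and Cnn1, but these genes were used to define the subset.

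Genes outside the rule were ranked if, in all 4 mice, the same subset held the higher level and at least 10 UMIs. Only Gucy1a1, the alpha subunit of soluble guanylate cyclase, the nitric oxide receptor, met these conditions on the side of the pericyte-leaning cells. Its level there was 8718 and 2020 CPM with placebo and 989.9 and 8596 CPM with tamoxifen. In smooth muscle-leaning cells it was 365 and 396 CPM with placebo and 352 and 293 CPM with tamoxifen. That every mouse had the higher level in its pericyte-leaning cells was a condition of the ranking. On the other side 242 genes met these conditions. Those with the largest smallest difference were Actc1, Map1b, Prss23, Ptgis, Pdlim3, Lmod1, Pls3, Synpo2, Spint2, Aspn, Hspb6 and Ccn3. All 12 had 0 UMIs in the pericyte-leaning cells of every mouse. In placebo mouse 1 and tamoxifen mouse 2 those were 1 cell each, of 2753 and 2792 UMIs, in which such genes could be missed. Lmod1, leiomodin, nucleates actin filaments, Ptgis makes prostacyclin, and Synpo2 and Pdlim3 are actin-associated scaffold proteins. With 1 to 5 pericyte-leaning cells a mouse, these are values of few cells, and 4 of the 10 UMIs of Gucy1a1 in tamoxifen mouse 1 came from the cell with fibroblast genes.

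Mixed cells, set apart by their pericyte genes, were compared with smooth muscle-leaning cells after values had been seen. Among ranked genes, the largest difference that held in every mouse was that of Rasl11a, higher in mixed cells by 0.64 to 1.91 on the log2 scale. Epas1, an oxygen-regulated transcription factor, was higher in mixed cells by 0.42 to 1.21, and Ccn2, a secreted target of SRF and YAP, was lower, at -0.59 to -0.95 (mixed over smooth muscle-leaning). Acta2 stood at 25598 CPM in mixed and 28484 CPM in smooth muscle-leaning cells, and Myh11 at 4279 and 4903 CPM.

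Markers of airway and of vascular smooth muscle were found in the same cells. Aspn, asporin, was found in 118 members, Itih4 in 79 and both in 67. Of the listed markers outside the rule, at least 2 airway or myofibroblast genes were found in 99 members and at least 2 vascular genes in 103, with 75 in both sets. Lgr6, a receptor reported in mouse airway smooth muscle, was found in 57 members. Hhip, a hedgehog-binding protein, was found in 3, with 29 and 3 UMIs with placebo and 0 in both tamoxifen mice, where 0 allows up to 9.80 and 15.6 CPM. The members were not divided into airway and vascular cells.

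Transcripts typical of other cells were of both kinds, spread over many members or held by 1. Scgb1a1, the secretory protein of club cells, was found in 99 members, with at most 18 of its 270 UMIs in 1 cell. It was also found in 46.5 to 66.3% of B cells, so its share in members is not read as expression. Of the 928 UMIs of Sftpc, the surfactant protein of alveolar type 2 cells, 922 came from the pericyte-leaning cell of placebo mouse 2 named above. Hbb-bs, a haemoglobin chain, gave 2403 UMIs in 40 members, with up to 751 in 1 cell, and Cd74, an antigen presentation gene, gave 337 of its 379 UMIs in 1 cell. Of 10 alveolar fibroblast genes, 4 or 5 a mouse had a UMI, mostly Npnt (108 members) and Limch1 (113 members), which at most 2.09% and 3.44% of B cells held. Together the 10 summed to 545 to 758 CPM in members and 919 to 1732 CPM in the rest of the cells. Of 9 adventitial fibroblast genes, 4 to 6 a mouse had a UMI, mostly Clec3b (56 members) and Col14a1 (43 members). Tcf21, Pi16 and Dpt were at 0 by the rule, and Pdgfra was found in 1 member. The heart muscle genes Tnni3, Myl4 and Myl7 were found in 1, 4 and 3 members. Summed over 5 red cell genes, members stood at 5508 and 49.8 CPM with placebo and 52.2 and 10887 CPM with tamoxifen. The 7 alveolar type 2 genes summed to 12.3 and 7988 CPM with placebo and 0 and 5.19 CPM with tamoxifen. The 9 macrophage genes, of which 1 to 8 had a UMI, summed to 17.2 and 662 CPM with placebo and 35.9 and 1520.5 CPM with tamoxifen. The 7 neutrophil genes stayed between 31.1 and 41.8 CPM, against 26530 to 89178 CPM in the rest of the cells, and the 5 B cell genes gave 1 UMI in all. The red cell and macrophage sums were thus highest in tamoxifen mouse 2.

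The contractile genes of the rule are given as levels only. After TMM scaling, which sets the libraries to a common scale, Acta2 stood at 28417 and 27391 CPM with placebo and 28612 and 33632 CPM with tamoxifen. Tagln stood at 18901 and 17777 CPM with placebo and 18786 and 19564 CPM with tamoxifen. Myh11 stood at 4982 and 5439 CPM with placebo and 5040.3 and 4381 CPM with tamoxifen. The groups overlapped for Tagln and Myh11, and for Acta2 the lower tamoxifen mouse lay just above the higher placebo mouse. Of the 15 contractile genes outside the rule 14 were tested between the groups and 0 passed. Their median log2 fold change, tamoxifen over placebo, was 0.03 beside 0.00 over all genes, and -0.09 to 0.04 with 1 mouse left out. Both tamoxifen mice lay above both placebo mice for 2 and below for 3. Over all 3938 genes tested, 16.9% lay above and 16.9% below in this sense. Flna, which crosslinks actin, stood at 4543 and 4834 CPM with placebo and 3819 and 3582 CPM with tamoxifen (-0.34 ± 0.15, standard error). Myl9, the regulatory light chain of smooth muscle myosin, stood at 5777 and 7185 CPM with placebo and 5570.4 and 5889.6 CPM with tamoxifen (-0.18 ± 0.16), with overlap.

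Across all genes no difference between tamoxifen and placebo passed the test. The edgeR quasi-likelihood test with Benjamini-Hochberg adjustment called 0 of 3938 genes (0%), the smallest adjusted p was 0.996, and 162 genes (4.11%) had an unadjusted p under 0.05. DESeq2 called 1 gene (0.0254%), Hspa1b, at 2.37 on the log2 scale (adjusted p = 0.00675). With 1 mouse left out, edgeR called 90 genes without placebo mouse 1, 0 without placebo mouse 2, 30 without tamoxifen mouse 1 and 30 without tamoxifen mouse 2. Each of those fits assumes that a lone mouse varies like the other group.

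Genes were named by the smallest p among those at a mean of at least 50 CPM whose groups did not overlap. On the higher side they were mostly heat shock genes, which encode chaperones that hold or refold unfolded proteins. None passed in edgeR. Hspa1b, an inducible Hsp70, stood at 517 and 310.4 TMM-scaled CPM with placebo and 1143 and 3189 with tamoxifen. Its reads and those of its near copy Hspa1a cannot always be told apart. Its log2 fold change was 2.36 ± 0.46 (standard error; edgeR adjusted p = 0.996), and both tamoxifen mice lay above both placebo mice. Hspb1, the small chaperone Hsp27, which acts on actin filaments, stood at 2069 and 2173 CPM with placebo and 4431 and 16813 CPM with tamoxifen. Its log2 fold change was 2.32 ± 0.50, and 1.07 without tamoxifen mouse 2. Hspa8, the constitutive Hsc70, stood at 1784 and 1715 CPM with placebo and 2880.2 and 5655 CPM with tamoxifen (log2 fold change 1.28 ± 0.29). Dnajb1, an Hsp40 that feeds clients to Hsp70, stood at 156 and 62.1 CPM with placebo and 301 and 672 CPM with tamoxifen (1.98 ± 0.47). For all 4 genes tamoxifen mouse 2 was the highest. That both tamoxifen mice lay above both placebo mice was a condition for naming them.

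Apart from these chaperones, 2 more genes were named on that side. Tnfrsf12a, the receptor for the cytokine TWEAK, stood at 129 and 124 TMM-scaled CPM with placebo and 301 and 590 with tamoxifen, with a log2 fold change of 1.78 ± 0.35. Scaled together with alveolar fibroblasts, it was at 135 and 129.9 CPM with placebo and 313 and 612 CPM with tamoxifen in members. In the fibroblasts it was at 24.95 and 34.5 CPM with placebo and 27.7 and 137 CPM with tamoxifen. The other was Actc1, described below with its neighbours in the actin family. On the lower side Clu, the secreted chaperone clusterin, stood at 647 and 784 CPM with placebo and 448 and 431 CPM with tamoxifen (-0.69 ± 0.21). Hbp1, a transcriptional repressor, stood at 113 and 139.7 CPM with placebo and 68.1 and 50.7 CPM with tamoxifen. The others were 1110008P14Rik (-1.10), AY036118 (-0.55), Mrps24 (-0.80) and Tm9sf3 (-0.75). AY036118 overlaps ribosomal RNA sequence, so its count is uncertain.

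**Figure D3:**
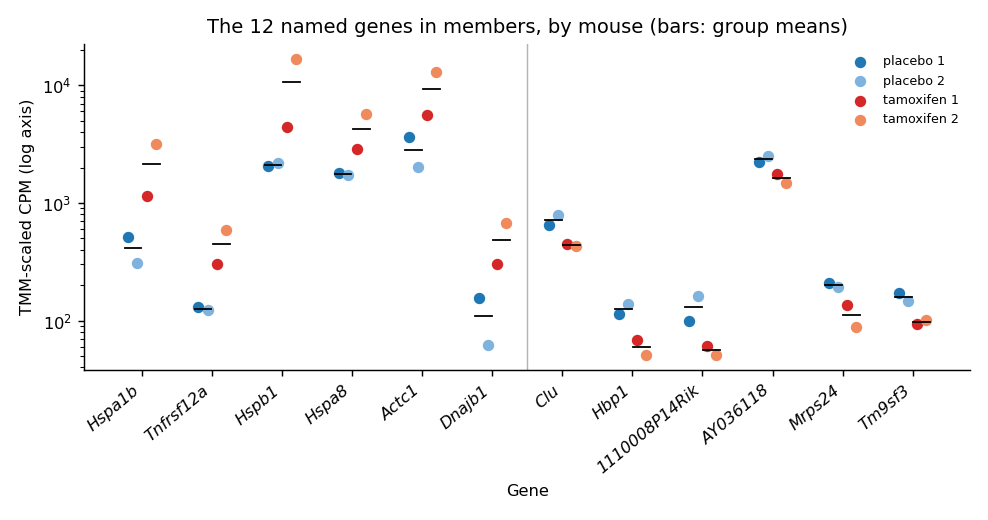
TMM-scaled CPM (y axis, log scale) of 12 genes, 6 in each direction, with 1 point per mouse and a bar at each group mean (n = 2). They had the smallest p among genes at a mean of at least 50 CPM whose groups did not overlap. Hspb1 reached 16813 CPM in tamoxifen mouse 2 against 2069 and 2173 CPM in the placebo mice; none of the 12 passed the edgeR test.

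Most of the heat shock list lay on the same side. All 19 genes were tested and 0 passed; 11 had an unadjusted p under 0.05, and their median log2 fold change was 0.96 beside 0.00 over all genes. Both tamoxifen mice lay above both placebo mice for 12 of the 19 and below for 1, Hspb6, against 16.9% of all genes in each direction. The 19 genes summed to 11378 and 10569 TMM-scaled CPM with placebo and 16808 and 43972 with tamoxifen. The median was 0.36 without tamoxifen mouse 2 and 1.53 without tamoxifen mouse 1. Single genes ran from -0.37 ± 0.24 (Hspb6) to 2.68 ± 0.63 (Hspa1a); Hsp90b1, Cryab, Hspb8 and Hspa9 lay between -0.19 and 0.23.

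Seen cell by cell, the difference lay in a tail of cells more than in the middle of each mouse. Heat shock genes took a median of 0.863% and 0.818% of a member's UMIs with placebo and 0.971% and 1.37% with tamoxifen. Over 2% was reached by 2 of 65 and 1 of 21 members with placebo and by 8 of 45 and 12 of 34 with tamoxifen. The highest cell reached 3.22% and 2.02% with placebo and 5.60% and 13.7% with tamoxifen. Of the 23 cells over 2%, 14 were smooth muscle-leaning, 9 mixed and 0 pericyte-leaning, and 13 also had over 2% of their UMIs from immediate early genes. Across the cells of a mouse, the heat shock share and the immediate early share had Spearman correlations of 0.51, 0.30, 0.70 and 0.63 over 65, 21, 45 and 34 cells. The cells share a library, and both shares have the cell's UMI count as divisor.

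**Figure D4:**
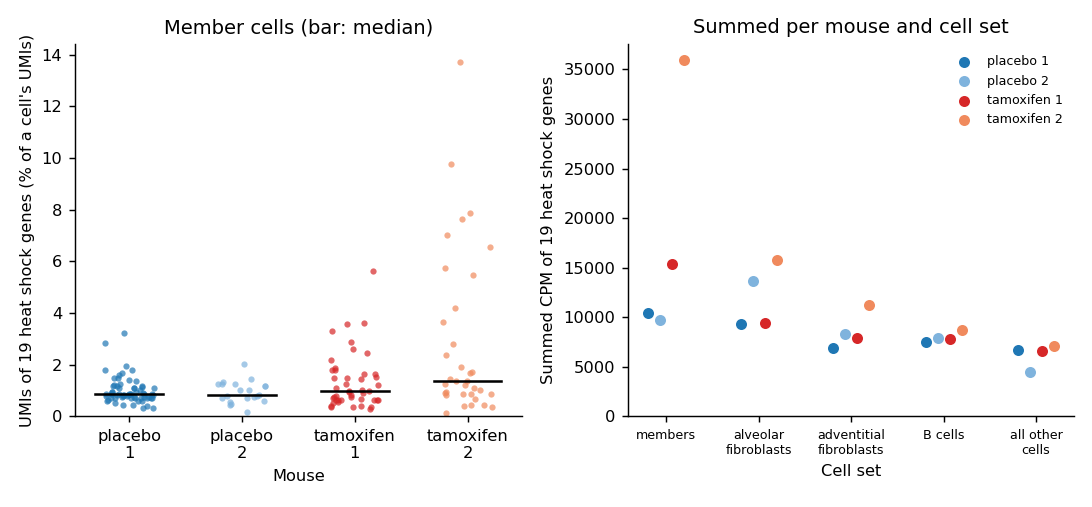
Left, the share of each member's UMIs that came from the 19 heat shock genes (y axis, %), 1 point per cell and a bar at the median of each mouse. Right, summed CPM of the same genes in members and other cell sets, 1 point per mouse; members of tamoxifen mouse 2 stand at 35993 CPM.

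Immediate early genes, which answer to stimulation and to tissue digestion within minutes, were also highest in tamoxifen mouse 2, and their sums overlapped between the groups. The 25 listed genes, of which 23 were tested, summed to 15050.4 and 5618 TMM-scaled CPM with placebo and 11227 and 25758 with tamoxifen. Both tamoxifen mice lay above both placebo mice for 6 of the 23 and below for 0, against 16.9% of all genes in each direction. The median log2 fold change was 0.88, and 0.06 without tamoxifen mouse 2. Fos stood at 1175 and 303 CPM with placebo and 785 and 5325 CPM with tamoxifen. In members at or below the median share of immediate early UMIs, the median of the heat shock list was 0.62. The part of digestion in these values was not tested.

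The heat shock sums of the groups overlapped in alveolar fibroblasts, adventitial fibroblasts, B cells and the rest of the cells. In each of these sets, too, tamoxifen mouse 2 had the highest sum. The summed CPM in alveolar fibroblasts was 9363 and 13697 with placebo and 9407 and 15723 with tamoxifen. In adventitial fibroblasts it was 6918 and 8322 with placebo and 7945 and 11277 with tamoxifen. In B cells it was 7517 and 7939 with placebo and 7799 and 8754 with tamoxifen. In the rest of the cells it was 6708 and 4486 with placebo and 6570 and 7102 with tamoxifen. Members gave 10388 and 9696 CPM with placebo and 15322 and 35993 CPM with tamoxifen on the same scale. The tamoxifen effect in members was tested against that in 104 alveolar fibroblasts, chosen by at least 3 of 8 marker genes. The edgeR test of the difference, with the mouse as a block, called 13 of 3694 genes (0.352%), 8 higher in members and 5 lower. One of them was a heat shock gene, Hspb1, at a difference of 2.09 ± 0.26 on the log2 scale (adjusted p = 0.00286; DESeq2 adjusted p = 0.000434). On the scale of that fit, Hspb1 stood in members at 2166 and 2273 CPM with placebo and 4608 and 17455 CPM with tamoxifen. In fibroblasts it stood at 2391 and 3631 CPM with placebo and 1679 and 4678 CPM with tamoxifen, where the groups overlapped. Hspb1 lies on chromosome 5 from 135887919 to 135889563, plus strand (GRCm38, GENCODE). The other 17 heat shock genes tested did not pass.

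The other 12 called genes were markers of red cells, alveolar type 2 cells and macrophages or antigen-presenting cells. They were Hba-a1, Hbb-bs, Hbb-bt, Alas2, Sftpc, Sftpa1, Sftpb, Cxcl15, Lyz1, C1qa, C1qb and H2-Ab1. With the 12 members left out that held over 1% of such RNA, 1 of 3210 genes was called (0.0312%), Hspb1 at 2.07 (adjusted p = 0.00984). Over all alternatives the adjusted p of Hspb1 ran from 7.33e-12 to 0.107, and it did not pass (0.107) when the limit on the 9 membership genes in fibroblasts was dropped.

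Actc1, the alpha actin of heart muscle, was the 1 actin among the genes named by the smallest p, and it did not pass the test. It stood at 3629 and 2017 TMM-scaled CPM with placebo and 5563 and 12908 with tamoxifen (log2 fold change 1.70 ± 0.39, edgeR adjusted p = 0.996), and the groups did not overlap. Smooth muscle-leaning cells held 2636 and 2743 CPM with placebo and 5183 and 13811 CPM with tamoxifen, and mixed cells 3987 and 1799 CPM against 5295 and 5488 CPM. No UMI was found in pericyte-leaning cells, alveolar fibroblasts or adventitial fibroblasts. For each UMI of Acta2 there were 0.128 and 0.0737 UMIs of Actc1 with placebo and 0.194 and 0.384 with tamoxifen, while the ratio of Actg2 to Acta2 lay between 0.0525 and 0.0677 in all 4 mice. Actc1 was not alone among actins in standing higher in both tamoxifen mice, since the levels of Acta2 given above did so too. The median level of Actg1 per member was 2542 and 1908 CPM with placebo and 2851 and 4188 CPM with tamoxifen. Scaled together with alveolar fibroblasts, Actg2 stood at 1562 and 1940 CPM with placebo and 1829 and 2205 CPM with tamoxifen, with overlap. These actins are related genes, and reads could be split between them. Their sequences were not compared, and such a split was not tested. Of 118 members with at least 50 Acta2 UMIs, 33 had no Actc1 UMI, and in 1 cell of tamoxifen mouse 2 the ratio reached 2.08. In that mouse 1 cell gave 408 of the 2036 Actc1 UMIs. Actc1 lies on chromosome 2 from 114047282 to 114053548, minus strand (GRCm38, GENCODE).

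Contractile and heat shock genes each have a textbook promoter element that can be looked for. The promoters of Actc1 and Hspb1 are shown because the genes stood apart above, and that of Hspe1, which is not among the named genes, because it is 1 of 2 heat shock genes with a match. RefSeq promoter windows (GRCm38.p6, the 250 bases before the start site) are printed 5′ to 3′ on the gene's strand. Capitals in Actc1 (chr2:114052876-114053125, minus strand) mark an exact CArG box, whose first base lies at -47 from the RefSeq start site. The GENCODE gene reaches further upstream, to 114053548, so this window lies inside it. Capitals in Hspe1 (chr1:55087898-55088147, plus strand), the co-chaperone of the mitochondrial chaperonin Hspd1, mark 2 overlapping matches to the heat shock element, searched on both strands as GAA, any 2 bases, TTC, any 2 bases, GAA. Hspb1 (chr5:135887669-135887918, plus strand) held no exact match, which says only that these letters are not in the window.
Actc1: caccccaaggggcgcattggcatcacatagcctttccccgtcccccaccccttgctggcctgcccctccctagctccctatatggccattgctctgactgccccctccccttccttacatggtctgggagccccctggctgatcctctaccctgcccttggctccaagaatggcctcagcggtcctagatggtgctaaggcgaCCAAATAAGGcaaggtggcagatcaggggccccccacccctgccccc
Hspe1: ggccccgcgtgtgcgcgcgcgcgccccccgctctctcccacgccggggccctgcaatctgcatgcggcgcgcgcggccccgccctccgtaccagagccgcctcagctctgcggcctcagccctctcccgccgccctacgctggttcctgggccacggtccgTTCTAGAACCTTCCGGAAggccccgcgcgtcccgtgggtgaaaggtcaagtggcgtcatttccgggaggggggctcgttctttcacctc
Hspb1: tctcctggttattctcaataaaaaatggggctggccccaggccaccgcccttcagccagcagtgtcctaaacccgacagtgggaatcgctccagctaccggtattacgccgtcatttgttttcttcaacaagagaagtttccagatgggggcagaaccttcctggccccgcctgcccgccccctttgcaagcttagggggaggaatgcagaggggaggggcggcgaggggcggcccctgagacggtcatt
Of 32851 promoters, 482 (1.47%) held an exact CArG box and 153 (0.466%) the heat shock element. Among listed contractile genes with a promoter in the table, 2 of 17 held a CArG box, Myl9 at -161 and Vcl at -227. The rule genes Acta2 and Cnn1 were among the 17 and held none. Among heat shock genes, 2 of 14 held the heat shock element, Hspd1 and Hspe1, whose windows overlap and share the same bases. Hspa1b and Dnajb1, which were named above, held none.

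The groups overlapped for the regulators of the contractile programme. Myocd, myocardin, stood at 124 and 178 TMM-scaled CPM with placebo and 139.7 and 203 with tamoxifen, and Srf at 72.7 and 31.0 CPM against 78.8 and 69.7 CPM. Of 10 listed SRF factors and targets 6 were tested and 0 passed. Both tamoxifen mice lay above both placebo mice for Ccn2 alone, 1 of the 6, against 16.9% of all genes. Ccn2 stood at 3918 and 1412 CPM with placebo and 4847 and 8432 CPM with tamoxifen (log2 fold change 1.31 ± 0.43).

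**Figure D5:**
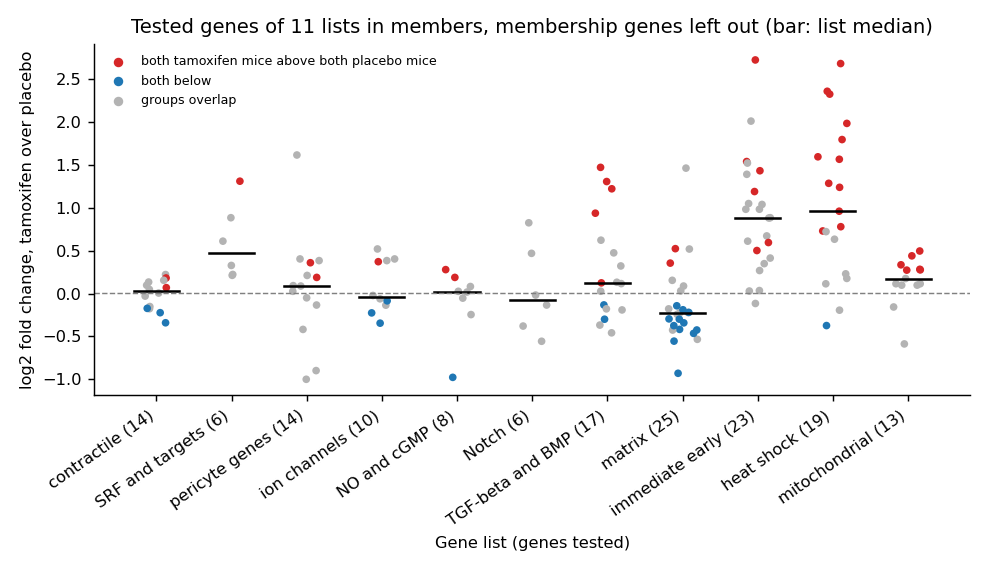
log2 fold change of tamoxifen over placebo (y axis) in members for the tested genes of 11 lists, membership genes left out, 1 point per gene, with a bar at the list's median and a dashed line at the median of all 3938 genes. Red marks genes with both tamoxifen mice above both placebo mice and blue genes with both below; the heat shock median is 0.96 and the contractile median 0.03.

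Many extracellular matrix genes stood lower in both tamoxifen mice, and none passed the test. Of 31 listed basement membrane and matrix genes 25 were tested and 0 passed. Their median log2 fold change was -0.22, and both tamoxifen mice lay below both placebo mice for 12 and above for 2, against 16.9% of all genes in each direction. Col4a1, a chain of the collagen of basement membranes, stood at 480 and 629 TMM-scaled CPM with placebo and 304 and 450.1 with tamoxifen (-0.55 ± 0.26). Bgn, the proteoglycan biglycan, stood at 2374 and 1917 CPM with placebo and 1899 and 1591 CPM with tamoxifen (-0.30 ± 0.20). Eln, the elastin of arterial and airway walls, stood at 2249.8 and 1265 CPM with placebo and 1401 and 1033 CPM with tamoxifen (-0.53 ± 0.29), and its groups overlapped. Sparcl1 and Timp3 were the 2 genes on the higher side. The median was -0.16 without tamoxifen mouse 2 and -0.12 without placebo mouse 1.

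Of 17 tested genes of the TGF-beta and BMP pathways 0 passed. The median was 0.12 (0.08 to 0.37 with 1 mouse left out). Both tamoxifen mice lay above both placebo mice for 5 and below for 2, against 16.9% of all genes in each direction. The ligand Tgfb3 stood at 110.5 and 101 TMM-scaled CPM with placebo and 165 and 387 with tamoxifen (1.30 ± 0.41), and the ligand Tgfb2 at 148 and 178 CPM against 222 and 406 CPM (0.94 ± 0.33). The target Id1 (1.47 ± 0.44) lay on the same side, while Smad7 (-0.18 ± 0.48) overlapped. For the receptors Tgfbr2, Eng and Bmpr2 the changes were -0.13 ± 0.24, -0.30 ± 0.37 and 0.12 ± 0.30.

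Of 6 tested genes of the Notch pathway outside the rule 0 passed and the groups overlapped for all 6. Their median was -0.08, and -0.09 to 0.35 with 1 mouse left out. Heyl, a target of Notch3, stood at 186 and 225 TMM-scaled CPM with placebo and 168 and 203 CPM with tamoxifen (-0.13 ± 0.25). Of the rule genes, given as levels, Notch3 stood at 379.9 and 419 CPM with placebo and 398 and 342 CPM with tamoxifen. Pdgfrb stood at 207 and 139.7 CPM with placebo and 158 and 152 CPM with tamoxifen. Cox4i2 stood at 175 and 543 CPM with placebo and 133 and 279 CPM with tamoxifen, highest in placebo mouse 2, which held 5 of the 9 pericyte-leaning cells. Of the pericyte genes outside the rule 14 of 20 were tested and 0 passed, with a median of 0.09 (-0.16 to 0.12 with 1 mouse left out).

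Few receptors that set vessel tone were detected well. Of 25 listed receptors for vasoactive agents 7 passed the count filter, and 0 passed the test. Npy1r, a receptor for neuropeptide Y, stood at 137 and 194 TMM-scaled CPM with placebo and 208 and 292 CPM with tamoxifen (0.62 ± 0.29). It was the 1 receptor of the 7 whose groups did not overlap, while 16.9% of all genes lay above in both tamoxifen mice. Ednra and Ednrb, the endothelin receptors, overlapped, with changes of 0.36 ± 0.30 and 0.27 ± 0.36. The angiotensin receptor Agtr1a was found in 8 members, and the muscarinic receptors Chrm2 and Chrm3 in 2 and 0, where 0 of 165 cells allows a share of up to 1.82%. Of 8 tested genes of nitric oxide and cyclic GMP signalling 0 passed. Gucy1a1 stood at 644 and 621 CPM with placebo and 595 and 697 CPM with tamoxifen (0.03 ± 0.21). Of 10 tested ion channel genes 0 passed, with a median of -0.04 (-0.13 to 0.22 with 1 mouse left out); Kcnmb1, a subunit of the calcium-activated potassium channel, stood at 259 and 256 CPM with placebo and 161 and 254 CPM with tamoxifen, so both tamoxifen mice lay below.

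The drug's own receptor was near the limit of detection. Esr1, oestrogen receptor alpha, had 4 UMIs in 4 members, 1 in each placebo mouse and 2 in tamoxifen mouse 2, and was found in 0.573 to 2.58% of B cells. Pgr and Greb1, its classical targets, had no UMI in members, where 0 allows from 7.38 CPM in placebo mouse 1 to 21.4 CPM in placebo mouse 2. Of 11 listed oestrogen genes 1 was tested, and of 21 sterol synthesis and transport genes 2 were. Of 19 cytokines and chemokines 2 passed the count filter. Cxcl12, which draws in leukocytes, stood at 29.6 and 62.1 TMM-scaled CPM with placebo and 390.5 and 38.0 CPM with tamoxifen; 101 of its 134 UMIs came from the pericyte-leaning cell with fibroblast genes. Il6 and Ccl2 had no UMI in members.

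Of the remaining lists, the genes encoded by mitochondrial DNA had a median of 0.17 (0.13 to 0.33 over 8 alternatives). Both tamoxifen mice lay above both placebo mice for 6 of these 13 genes and below for 0, against 16.9% of all genes in each direction. The angiogenic genes (7 tested) had a median of 0.47 (0.24 to 0.85) and the interferon genes (4) one of -0.26 (-0.46 to -0.02). For the other 4 lists the sign of the median turned among the alternatives. It was -0.10 (-0.20 to 0.23) for antigen presentation class I genes (6), -0.17 (-0.38 to 0.21) for platelet-derived growth factor genes (3), -0.12 (-0.32 to 0.03) for oxygen-dependent subunit isoforms (6) and -0.13 (-0.39 to 0.07) for glucocorticoid and clock genes (11). In each of these lists 0 genes passed.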

How the data were processed

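Whole lung cells of 4 mice were profiled by droplet single-cell RNA sequencing. Per the file headers, the authors deposited whole-number UMI counts, not normalized, for 32285 genes in each barcode. They ran Cell Ranger: the file headers name version 5.0.0 and the submitters' processing notes version 8.0.1 with the mm10 build, and which made the matrices was not settled. No barcode had fewer than 500 UMIs. Members and gene lists were chosen with earlier results of these data known.

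UMI counts of members were summed per mouse. The test was that of edgeR 4.0.16, run in R 4.3.3 (filterByExpr, TMM scaling, quasi-likelihood F test, Benjamini-Hochberg over all genes tested, threshold 0.05). DESeq2 1.42.0 was an alternative. Standard errors were derived from the F statistic. The difference from alveolar fibroblasts was an interaction term with the mouse as a block. Doublets were scored with Scrublet in scanpy 1.11.5. Intervals and limits at 0, taken as 3 counts, cover counting error only. The labels name 2 mice per group, and p-values measure the spread between them. Scripts were tested on simulated data.

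Subsets of members were compared only by values, as log2 ratios with 10 CPM added. Named were, where under 6 genes passed in a direction, the 6 with the smallest p at a mean of at least 50 CPM whose groups did not overlap. Among subsets, up to 12 genes a side were named, with 10 UMIs and the same direction in every mouse. Rule genes and list members of high level were named too. Others, such as Hhip, Cxcl12 and Sftpc, and most list members given with values, were chosen after their values were seen. Alternatives changed the size factors, count filter, marker minimum, cells and mice.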

Additional observations from a re-analysis of the deposited data

Results flagged for a closer look

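The effect of tamoxifen differed between members and alveolar fibroblasts for 13 genes in the edgeR test of the difference, given here as the log2 fold change in members minus that in fibroblasts. Hspb1 was the 1 gene whose UMIs were spread over many members, with UMIs in 141 of 165, at a difference of 2.09. The red cell genes Hba-a1, Hbb-bt, Alas2 and Hbb-bs had differences of 12.8, 7.03, 10.1 and 7.89. The alveolar type 2 genes Sftpc, Cxcl15, Sftpa1 and Sftpb and the lysozyme gene Lyz1 had differences of -19.8, -14.7, -10.8, -14.9 and -15.7. The macrophage and antigen presentation genes C1qa, C1qb and H2-Ab1 had differences of 15.9, 14.2 and 8.15. Beside Hspb1, these values rest on groups with counts at or near 0 and are fitted values, not measured folds. Sftpc had 922 of its 928 UMIs in members in 1 cell, and C1qa had its 87 UMIs in members in 1 cell. With the 12 members that held over 1% of RNA of other cell types left out, Hspb1 alone was called.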

How the results depend on the processing

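The count of genes called between tamoxifen and placebo was 0, and it was 0 with RLE size factors, with at least 4 markers, with high doublet scores left out, with equal cells per mouse and in 3 alternatives chosen after seeing the data. It was 1 in DESeq2, 70 with no count filter and 1 with at least 2 markers, and 0 to 90 with 1 mouse left out. For the difference from alveolar fibroblasts, the count of 13 became 1 in DESeq2, 41 with no count filter, 7 to 34 with 1 mouse left out and 1 with members holding RNA of other cell types left out. The difference in the members' share of kept cells, -0.0349 points, ran from -0.304 to 0.234 with 1 mouse left out and turned positive without placebo mouse 1 (0.234) and without tamoxifen mouse 2 (0.0594). That of the pericyte-leaning share of members, -8.98 points, ran from -20.1 to 2.15 and turned positive without placebo mouse 2. The causes were not tested.

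With the replicate number as a block, edgeR called 0 genes, and 151 had an unadjusted p under 0.05. Deviations of same-numbered mice correlated at -0.101 over 3341 genes, and with the numbers crossed, a fit added after seeing the data, edgeR called 8. Tests of pericyte-leaning and smooth muscle-leaning members alone were not run, because a mouse had fewer than 20 such cells. Of the named genes' alternatives in members, 165 kept direction and side of the threshold and 26 passed it newly; for the difference, 58 kept both and 31 lost the threshold. The small number of cells, 21 in placebo mouse 2, limits what could be seen.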
